A study of Homo sapiens with 12 samples.

Results

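Chemokines that tumor cells release were measured as messenger RNA in lung cancer lines after the level of miR-197 had been raised or blocked. The 10 members were CXCL1, CXCL2, CXCL3, CXCL5, CXCL6, IL8 (now named CXCL8), CCL2, CCL20, CX3CL1 and CXCL16. They were chosen by name, and every probe of the array whose gene name in the scanner output was one of these symbols was taken, which gave 15 of 50599 probes on each of 12 arrays and 10 of the 36279 gene names on the array. The lines were A549, PC14 and PC14CDDP, all human lung cancer lines, the last of which is resistant to cisplatin (CDDP) and has PC14 as its parental line. Each line received pre-miR-197 (a synthetic precursor of the miRNA), NC (AllStar-NC, its negative control), LNA-miR-197 (a locked nucleic acid antisense oligonucleotide against the miRNA) or LNA-NC (the control of that chemistry), each at 25 nM with a lipid reagent. There was 1 array for each transfection of each line, so that the 3 lines served as replicates of a transfection, and the 4 arrays of a line were cultures of that line with different transfections. PC14 and PC14CDDP share their origin, so these replicates were not fully independent.

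Chemokines are small secreted proteins that bind G protein-coupled receptors on leukocytes and guide their migration. The CXC ligands CXCL1, CXCL2, CXCL3, CXCL5, CXCL6 and IL8 share a glutamate-leucine-arginine motif before their first cysteines and act on CXCR2, and IL8 and CXCL6 also act on CXCR1, to draw neutrophils and promote vessel growth. CCL2 recruits monocytes through CCR2, and CCL20 recruits CCR6-bearing lymphocytes and dendritic cells. CX3CL1 and CXCL16 are made as membrane-bound proteins with a chemokine domain on a mucin-like stalk and are released by the proteases ADAM10 and ADAM17. Transcription of many of these genes is driven by NF-κB after interleukin-1 or TNF, and several of the messages are short-lived because of AU-rich elements.

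The agent of the study was miR-197, and its mature sequences are given here because pre-miR-197 supplies it and LNA-miR-197 pairs with it. The labels did not say which arm was meant. RefSeq (GRCh38.p14) places both arms on the plus strand of chromosome 1, the 5p arm at chr1:109598901-109598923 and the 3p arm at chr1:109598940-109598961. The seed (bases 2 to 8) is in capitals. The miRNA itself was not measured on these arrays.
hsa-miR-197-3p: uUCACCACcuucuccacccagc
hsa-miR-197-5p: cGGGUAGAgagggcagugggagg

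The promoters of 7 members were listed in the RefSeq promoter set of GRCh38.p14 (CXCL1, CXCL2, CXCL3, CXCL5, CXCL6, IL8 and CCL20), each as 250 bases before and 50 after the transcript start. They were searched on both strands for an NF-κB motif, GGAATTTCC, for a looser form of it, GGNNNTTCC, which contains the exact one, and for an AP-1 motif, TGANTCA. The exact NF-κB motif was present in 6 of the 7, all but CCL20, and in 162 of 35116 promoters in the set (0.461%). The 6 windows of 40 bases around it are shown because these are the members that sit together on chromosome 4, with the motif in capitals and each sequence read in the direction of the gene.
CXCL1 (chr4:73869300-73869339, plus strand): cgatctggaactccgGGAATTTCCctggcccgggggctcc
CXCL2 (chr4:74099248-74099287, minus strand): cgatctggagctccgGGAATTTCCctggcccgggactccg
CXCL3 (chr4:74038743-74038782, minus strand): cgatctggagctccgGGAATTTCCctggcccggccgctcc
CXCL5 (chr4:73998743-73998782, minus strand): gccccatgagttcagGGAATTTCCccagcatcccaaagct
CXCL6 (chr4:73836574-73836613, plus strand): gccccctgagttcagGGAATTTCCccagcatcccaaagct
IL8 (chr4:73740463-73740502, plus strand): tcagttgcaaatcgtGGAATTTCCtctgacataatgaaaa

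Counted from the transcript start, the motif began at position -78 in CXCL1 and CXCL3 and -77 in CXCL2, and at -90, -89 and -91 in CXCL5, CXCL6 and IL8. CXCL1, CXCL2 and CXCL3 held a further match to the looser form, which CCL20 held once and 20.1% of all promoters in the set held. An AP-1 motif was found in IL8, at position -137, and in 7.71% of all promoters. Across the whole 300 bases, CXCL1 and CXCL3 were identical at 84.7% of positions and CXCL5 and CXCL6 at 83.7%. IL8 shared between 37.3% and 43.0% with the other promoters. CCL20, which lies on another chromosome, shared between 39.0% and 43.0% with them, so the values of IL8 do not set it apart from CCL20. These matches describe the sequence and do not show that a factor was bound.

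**Figure D1:**
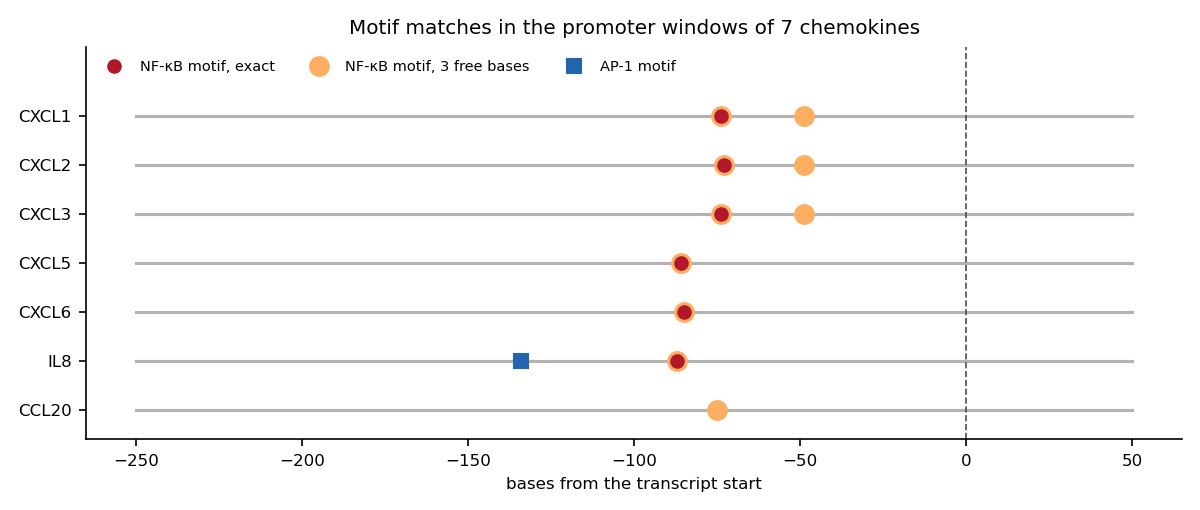
Position of the motif matches in the promoters of 7 chemokines, in bases from the transcript start (dashed line). Red dots are the exact NF-κB motif, orange dots its looser form and the blue square the AP-1 motif; the exact motif was present in 6 of the 7 promoters, all but CCL20.

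On the array, 5 genes had 2 probes each, which are called a and b in the order of their hg19 coordinates. The probes lay on chromosome 4 for CXCL1 (a at chr4:74735646-74735705, b at chr4:74736850-74736909), CXCL2 (a at chr4:74962985-74963044, b at chr4:74964342-74964401), CXCL3 (chr4:74902702-74902761), CXCL5 (chr4:74861898-74861957), CXCL6 (a at chr4:74703368-74703427, b at chr4:74714496-74714555) and IL8 (a at chr4:74607982-74608041, b at chr4:74609265-74609324). The other genes lay on chromosome 17 for CCL2 (chr17:32584050-32584109) and CXCL16 (a at chr17:4637560-4637619, b at chr17:4637807-4637866), on chromosome 2 for CCL20 (chr2:228681100-228681836, a range longer than the probe) and on chromosome 16 for CX3CL1 (chr16:57418025-57418084). CXCL1, CXCL2 and CXCL3 are close paralogs, and their probes may share RNA. CXCL1 probe a and CXCL2 probe b overlapped over 37 bases with 5 differences (86.5% identical), and the files list the RefSeq messages of both CXCL2 and CXCL3 for CXCL2 probe b. The first 30 bases of this overlap, with the differing bases in capitals, hold all 5 differences.
CXCL1 probe a: aagcttgCctcaaTccTgcatcCcccatAg
CXCL2 probe b: aagcttgTctcaaCccCgcatcGcccatGg

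Levels are given on a log2 scale on which 0 stands for the upper-quartile signal of the array (its 75th percentile) and 1 unit is a doubling of the processed signal. They were compared between arrays for the same probe and not between probes. That percentile was 614 to 715 signal units, no spot was saturated, and the scanner software flagged 55.8% to 63.1% of the probes of an array as well above background. The A549 arrays lay on slide 1 and all arrays of PC14 and PC14CDDP on slide 2, so that A549 and its slide cannot be told apart. The slide column was the same for a given transfection in all lines, so column and transfection cannot be told apart either. The epithelial markers KRT8, KRT18 and KRT19 were well above background on every array, EPCAM and CDH1 on all 4 A549 arrays, on 3 and 2 of the PC14 arrays and on none of PC14CDDP. In these bulk RNA samples, fewer cells that make a chemokine and less RNA per cell cannot be told apart.

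Of the 15 probes, 8 (CXCL1, CXCL2, CXCL3, CXCL5 and CXCL16) were well above background on all 12 arrays, and 11 passed the filter of 3 arrays and were tested. CCL2 and CCL20 passed through the 4 A549 arrays, and IL8 probe b through 4 A549 and 3 PC14 arrays, so a difference between lines was built into the passing of these 3. Both CXCL6 probes and IL8 probe a were not well above background on any array. CX3CL1 was well above it on 2 arrays, PC14 with pre-miR-197 and PC14 with LNA-miR-197. These 4 probes were not tested.

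Among the neutrophil-attracting ligands, CXCL1, CXCL2 and CXCL3 were highest in A549, lower in PC14CDDP and lowest in PC14. CXCL1 probe b was at 1.12, 0.10, 1.23 and 2.07 in A549 after pre-miR-197, NC, LNA-miR-197 and LNA-NC, in that order. In PC14 it was at -3.60, -4.52, -4.61 and -4.70, and in PC14CDDP at -2.13, -2.83, -2.83 and -2.56. The 3 lines did not overlap for this probe. For CXCL1 probe a the A549 mean was -0.79 ± 0.62, against -4.49 ± 0.30 for PC14 and -3.17 ± 0.28 for PC14CDDP (SD, n = 4 arrays of each line, as for all line means here).

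CXCL2 probe a was at 1.67, 0.32, 1.74 and 2.22 in A549, in the same order of transfections. It was at -3.38, -3.88, -2.79 and -3.95 in PC14 and at -0.86, -1.25, -0.65 and -1.12 in PC14CDDP. The 3 lines did not overlap, and the NC array was the lowest of A549 and of PC14CDDP. CXCL2 probe b, which may also read CXCL3, had means of 0.05 ± 0.77, -4.01 ± 0.21 and -1.998 ± 0.39 in A549, PC14 and PC14CDDP. CXCL3 was at -1.91, -2.55, -1.11 and -0.82 in A549, at -5.28, -5.45, -4.85 and -5.43 in PC14 and at -3.83, -4.35, -2.75 and -4.57 in PC14CDDP. For CXCL3, A549 and PC14CDDP came close, with the lowest A549 array at -2.55 and the highest PC14CDDP array at -2.75.

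CXCL5, another CXCR2 ligand, set A549 apart from both other lines. It was at 4.02, 2.37, 4.14 and 4.47 in A549, at -1.11, -1.19, -1.15 and -1.10 in PC14 and at -1.18, -0.997, -1.42 and -0.93 in PC14CDDP. PC14 and PC14CDDP overlapped, with all their arrays between -1.42 and -0.93, while the NC array of A549 was 1.65 below the next A549 array. CXCL6, whose promoter is close to that of CXCL5, was not well above background in any line, with probe a between -8.56 and -7.38 and probe b between -8.40 and -5.73. No RefSeq message is listed for probe b, so the reading of CXCL6 rests on probe a.

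IL8, another neutrophil chemokine, followed another order, with A549 and PC14 above PC14CDDP. Probe b was at -3.79, -4.99, -2.89 and -3.12 in A549 after pre-miR-197, NC, LNA-miR-197 and LNA-NC. In PC14 it was at -4.36, -6.28, -2.95 and -4.77, where the NC array was not well above background. In PC14CDDP it was at -7.35, -8.08, -6.91 and -7.82, and no array was well above background. The NC array was the lowest of the 4 in each line, and A549 and PC14 overlapped. Probe a, which the files tie to an Ensembl transcript without a RefSeq message, lay between -8.23 and -6.21 and was not well above background in A549 either, so the 2 probes of IL8 disagree on detection.

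CCL2, the monocyte chemokine, was at 1.05, 0.61, 0.48 and 0.82 in A549 and between -8.01 and -7.24 on the 8 other arrays, none of which was well above background. Its 8 to 10 spots on each array varied by an SD of 0.04 to 0.07 in A549 and of 0.20 to 0.79 in the other lines. CCL20 was at -5.26, -5.24, -2.21 and -2.73 in A549 and between -8.56 and -6.74 elsewhere, again not well above background. Within A549 the pair of LNA arrays lay above the pair of pre-miR-197 and NC arrays for CCL20, with no overlap.

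Of the membrane-bound chemokines, CX3CL1 lay between -7.21 and -5.80 on all arrays, at or near the lower limit of detection. CXCL16 was measured on every array, with the highest mean in A549 and the lowest in PC14CDDP. Probe b was at -0.94, -1.26, 0.27 and -0.61 in A549, at -2.11, -2.02, -2.14 and -1.93 in PC14 and at -2.79, -2.40, -2.47 and -2.82 in PC14CDDP. The 3 lines did not overlap for probe b, whereas for probe a (means of -0.73 ± 0.45, -1.47 ± 0.17 and -2.06 ± 0.36) the highest PC14CDDP array (-1.67) came close to the lowest PC14 array (-1.61).

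**Figure D2:**
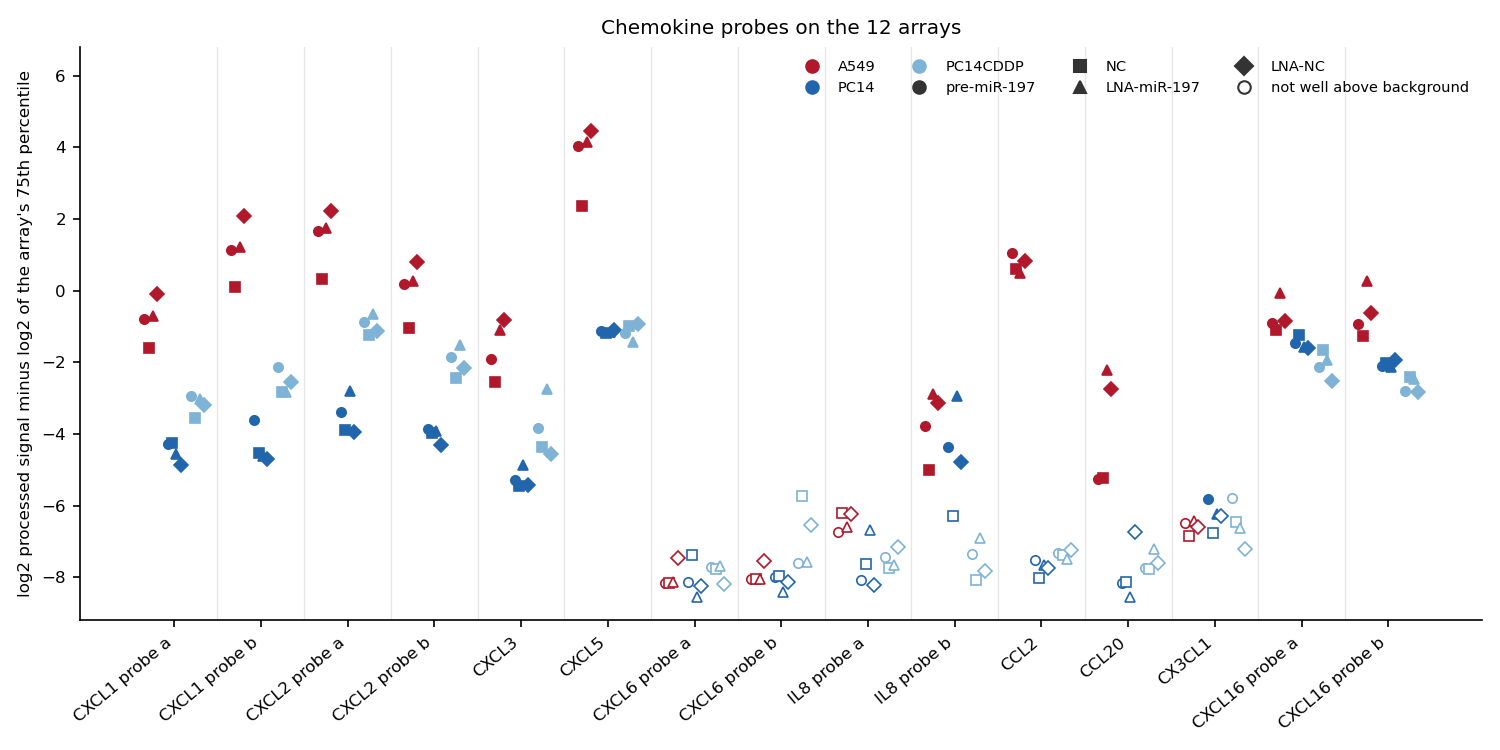
Log2 signal, with the 75th percentile of each array set to 0, for the 15 chemokine probes on the 12 arrays, by line (color) and transfection (shape), with open symbols where the probe was not well above background. A549 lies above both other lines for CXCL1, CXCL2, CXCL5 and CCL2, and both CXCL6 probes are open throughout.

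The differences between lines were tested with limma on all 12 arrays, with the transfection as a term and Benjamini-Hochberg adjustment over 33714 probes. In A549 against PC14, all 8 probes measured on every array were called higher and 0 lower. CCL2, CCL20 and IL8 probe b were called higher too. A difference between these lines was built into the passing of CCL2 and CCL20, while IL8 probe b passed the filter through arrays of both. Of all probes tested, 34.4% were called higher and 33.1% lower in this comparison. Over the 8 member probes measured on every array the median difference was 3.88, beside -0.02 for the 24609 such probes of the array. The largest folds among probes measured in both lines were 45.0 for CXCL1 probe b (log2 difference 5.49, SE 0.33, adjusted p = 2.11e-06), 31.7 for CXCL2 probe a and 29.6 for CXCL5. CXCL3 differed by 12.6-fold, CXCL16 by 1.68-fold (probe a) and 2.67-fold (probe b), and IL8 probe b by 1.85-fold (adjusted p = 0.0435). CCL2 was at least 128-fold and CCL20 at least 5.25-fold higher in A549, where the bound sets the PC14 arrays at the lowest signal that counted as well above background. The call of IL8 probe b was lost with the arrays of pre-miR-197, NC or LNA-NC left out, with quantile or normexp processing and without the filter on dim probes. The call of CXCL16 probe a was lost without the LNA-miR-197 arrays or without the LNA-NC arrays.

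In A549 against PC14CDDP, the same 8 probes measured on every array were called higher and 0 lower, beside 35.5% of all probes higher and 34.7% lower. CCL2, CCL20 and IL8 probe b were called higher too. No PC14CDDP array was well above background for them, so a difference of PC14CDDP from the other lines was built into their passing of the filter. The median difference was 2.33 for the 8 member probes measured on every array and -0.08 for all such probes. CXCL5 was 29.5-fold higher in A549, which is close to its fold over PC14, while CXCL1 probe b was 13.2-fold, CXCL2 probe a 5.49-fold and CXCL3 4.85-fold higher. CXCL16 was 2.52-fold (probe a) and 3.96-fold (probe b) higher. CCL2 was at least 96.3-fold, IL8 at least 4.43-fold and CCL20 at least 3.96-fold higher. Both comparisons use the same A549 arrays and carry the slide with them. All 5 epithelial markers were also called higher in A549, with a median log2 difference of 4.45 against PC14 and 6.58 against PC14CDDP (5.53 with CDH1 and EPCAM, dim in PC14CDDP, at their bounds), and their summed level was 301 to 416 times the 75th percentile in A549, 155 to 227 in PC14 and 159 to 229 in PC14CDDP. The part of this in the chemokine differences was not tested.

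PC14CDDP against PC14 was compared within slide 2, where the PC14 arrays filled row 1 and the PC14CDDP arrays row 2, so that line and row cannot be told apart. CXCL1, CXCL2 and CXCL3 were called higher in PC14CDDP, and IL8 was called lower, so the neutrophil-attracting ligands did not move together between the parent and its derivative. With CCL2, 6 of 11 probes were called higher and 1 lower, beside 25.1% of all probes higher and 23.5% lower. Over the probes measured on every array the median was 1.35 for the 8 member probes and 0.06 for all. CXCL2 was 5.78-fold higher by probe a (log2 difference 2.53, SE 0.30, adjusted p = 2.14e-04) and 4.04-fold by probe b. CXCL1 was 3.42-fold (probe b) and 2.49-fold (probe a) higher, and CXCL3 2.60-fold (adjusted p = 0.00984). IL8 was at least 2.39-fold lower in PC14CDDP (fitted log2 difference -2.95, SE 0.34, adjusted p = 1.87e-04). Its tested probe passed the filter through A549 and PC14 arrays, so a difference was built in here too. CCL2 passed the test with a log2 difference of 0.37, but no array of either line was well above background for it, and no fold is given.

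CXCL5 did not pass the test between PC14CDDP and PC14, with a log2 difference of 0.01 and a 95% interval from -0.80 to 0.81. CXCL16 did not pass it either, at -0.59 (probe a, adjusted p = 0.0562, interval -1.09 to -0.08) and -0.57 (probe b, adjusted p = 0.104, interval -1.16 to 0.02). CXCL16 probe a was called lower in 6 of its 12 alternatives and probe b in 2 of 11 (without the LNA-miR-197 arrays and with the arrays of these lines alone). The call of CXCL3 was lost without the LNA-miR-197 arrays, without the pre-miR-197 arrays and with normexp processing. The call of CCL2 was lost in 5 of its 11 alternatives, which were normexp processing, a trended robust prior, the arrays of these lines alone, and leaving out the NC or the LNA-NC arrays. The calls of CXCL1, CXCL2 and IL8 held in every alternative that tested them. Of the epithelial markers, 3 of 5 (CDH1, EPCAM and KRT19) were called lower in PC14CDDP and 0 higher, beside 23.5% and 25.1% of all probes. CDH1 and EPCAM were not well above background on any PC14CDDP array, so they were at least 1.22-fold and 1.49-fold lower. The median log2 difference over the 5 was -2.13, and -0.29 with CDH1 and EPCAM at their bounds. The part of this was not tested here either.

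**Figure D3:**
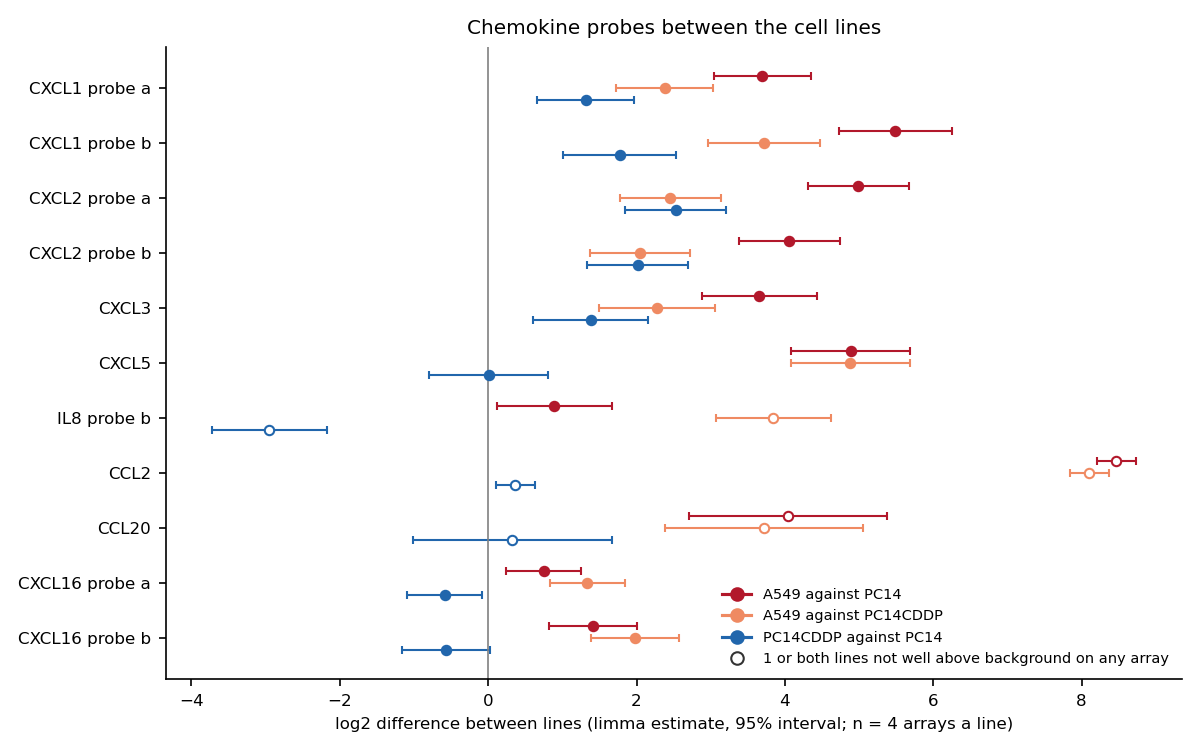
Log2 difference between lines for the 11 tested chemokine probes (limma estimate with its 95% interval, 4 arrays a line), with open symbols where a line had no array well above background. All 11 probes lie above 0 in both A549 comparisons, where CCL2, CCL20 and IL8 probe b passed the filter through the lines in which they were high. In PC14CDDP against PC14, CXCL1, CXCL2 and CXCL3 lie above 0, IL8 below it and CXCL5 on it.

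The effect of raising miR-197 was read from pre-miR-197 against NC within each line. None of the 11 probes was called (0 higher, 0 lower, limma), beside 0.0297% of all probes called higher and 0.0504% lower. At an unadjusted p under 0.05 limma gave 3 probes (IL8 probe b, CXCL1 probe b and CCL2) and the methods' t-test 0. CCL2 was well above background in A549 alone, so its direction in the other lines is not a measurement of RNA. The direction was mostly upward, with 6 of the 11 probes higher in all 3 lines and 0 lower in all 3, where 25.5% of all tested probes were higher in all 3. Over the 8 member probes measured on every array it was 4 of 8, beside 29.4% of all such probes. The median log2 difference was 0.49 for these 8 member probes and 0.04 for all such probes.

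After pre-miR-197, IL8 probe b was higher in A549 by 1.21, in PC14 by 1.92 and in PC14CDDP by 0.73 on the log2 scale. The mean was 1.29 (SE 0.39, 95% interval 0.40 to 2.18, adjusted p = 0.181), and both arrays were well above background in A549 alone, so that the PC14 ratio is at least 3.31-fold and the PC14CDDP ratio has no fold. In A549, CXCL5 (1.65) and CXCL2 (1.34 and 1.22) had larger ratios than IL8. CXCL1 probe b was higher by 1.02, 0.92 and 0.70 in A549, PC14 and PC14CDDP (mean 0.88, SE 0.38, adjusted p = 0.313). CXCL1 probe a gave 0.80, -0.02 and 0.63, so the probes of CXCL1 differed most in PC14. CXCL2 probe a was higher by 1.34, 0.49 and 0.38 (mean 0.74, adjusted p = 0.342), and CXCL3 by 0.64, 0.17 and 0.52 (mean 0.45, adjusted p = 0.624). CXCL5 rested on A549, with 1.65 there, 0.08 in PC14 and -0.18 in PC14CDDP (mean 0.52, SE 0.40, adjusted p = 0.578). CXCL16 differed by -0.17 (probe a) and -0.06 (probe b), with intervals from -0.75 to 0.42 and from -0.74 to 0.63. CCL20 gave -0.02 in A549, the line where it was measured, and CCL2 gave 0.44 there.

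Counting folds within a line without a test, 5 of the 11 probes measured on both A549 arrays were at least 2-fold higher with pre-miR-197 than with NC (CXCL1 probe b, both CXCL2 probes, CXCL5 and IL8 probe b), where 0.566% of all probes measured there were. In PC14 0 of 8 were (0.806% of all) and in PC14CDDP 0 of 8 (1.65% of all). No member was at least 2-fold lower in any line.

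Blocking miR-197 was read from LNA-miR-197 against LNA-NC. Again 0 of the 11 probes were called, while 3.92% of all probes were called higher and 4.03% lower, and at an unadjusted p under 0.05 limma gave 1 (IL8 probe b) and the methods' t-test 0. Of the member probes 2 were higher in all 3 lines (IL8 probe b and CXCL16 probe a) and 1 was lower in all 3 (CXCL5). Of all tested probes 23.2% were higher and 24.7% lower in all 3. The median log2 difference was 0.26 for the 8 member probes measured on every array and -0.0043 for all such probes. IL8 probe b had ratios of 0.23, 1.82 and 0.91 in A549, PC14 and PC14CDDP (mean 0.99, SE 0.39, interval 0.10 to 1.88, adjusted p = 0.146), of which the last is between arrays that were not well above background.

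CXCL3 had ratios of -0.29, 0.58 and 1.82 in A549, PC14 and PC14CDDP (mean 0.70, SE 0.39, adjusted p = 0.287). CXCL2 probe a gave -0.48, 1.16 and 0.46, and CXCL1 probe b -0.84, 0.10 and -0.27. In A549 all 6 probes of CXCL1, CXCL2, CXCL3 and CXCL5 thus had lower signal with LNA-miR-197 than with its control, with log2 ratios between -0.84 and -0.29, while in PC14 5 of the 6 were higher. CXCL16 probe a gave 0.76, 0.03 and 0.59 (mean 0.46, interval -0.12 to 1.05, adjusted p = 0.279). At least 2-fold higher after LNA-miR-197 were 0 of 11 member probes measured in A549 (1.29% of all probes), 2 of 9 in PC14 (CXCL2 probe a and IL8 probe b, beside 1.52%) and 1 of 8 in PC14CDDP (CXCL3, beside 5.73%).

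The control transfections were compared with each other because the members differed between them in A549. LNA-NC against NC called 0 of the 11 probes (0.326% of all probes higher, 0.128% lower), with 1 at an unadjusted p under 0.05 (IL8 probe b, limma) and 0 by the methods' t-test. In A549, however, 8 of the 11 measured probes were at least 2-fold higher on the LNA-NC array than on the NC array, where 2.41% of all probes were. These were CCL20 (log2 ratio 2.51), CXCL5 (2.09), CXCL1 (1.97 for probe b and 1.504 for probe a), CXCL2 (1.89 and 1.83), IL8 probe b (1.87) and CXCL3 (1.73). The 3 that were not were CCL2 (0.21) and CXCL16 (0.25 and 0.64). In PC14 0 of 8 member probes (0.971% of all) and in PC14CDDP 0 of 8 (1.65% of all) were at least 2-fold higher, and CXCL1, CXCL2, CXCL3 and CXCL5 lay between -0.63 and 0.38 there.

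The A549 array with NC was thus the lowest of its line for all 6 probes of CXCL1, CXCL2, CXCL3 and CXCL5, for IL8 probe b and for both CXCL16 probes. Its 75th percentile of 639 signal units and its share of probes well above background, 61.8%, lay within the range of the other A549 arrays. The comparisons of pre-miR-197 with NC and of LNA-NC with NC share the NC arrays. Without A549, the mean log2 difference after pre-miR-197 was -0.052 for CXCL5, and that of LNA-NC against NC was -0.13 for CXCL1 probe a, -0.023 for CXCL2 probe b and -0.10 for CXCL3.

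With NC in place of LNA-NC as the control of LNA-miR-197, 1 of the 11 member probes was called, IL8 probe b, at a log2 difference of 2.20 (limma adjusted p = 0.0147, a comparison run in this setting alone). Of all 33714 probes tested, 2355 were called higher and 2628 lower in this setting. The ratios of IL8 probe b to NC were 2.10 in A549, 3.33 in PC14 (at least 8.78-fold, against a dim spot) and 1.18 in PC14CDDP, where neither array was well above background. The difference between the effects of LNA-miR-197 and pre-miR-197 was tested directly, and 0 of the 11 member probes were called (0.0326% of all probes higher, 0.0178% lower). CCL2 alone had an unadjusted p under 0.05 (limma log2 difference -0.50, adjusted p = 0.209). It was well above background in A549 alone, so the ratios of the other lines in this estimate are not measurements of RNA. For IL8 probe b that difference was -0.30 with an interval from -1.56 to 0.96, and for CXCL1 probe b -1.22 with an interval from -2.46 to 0.02.

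**Figure D4:**
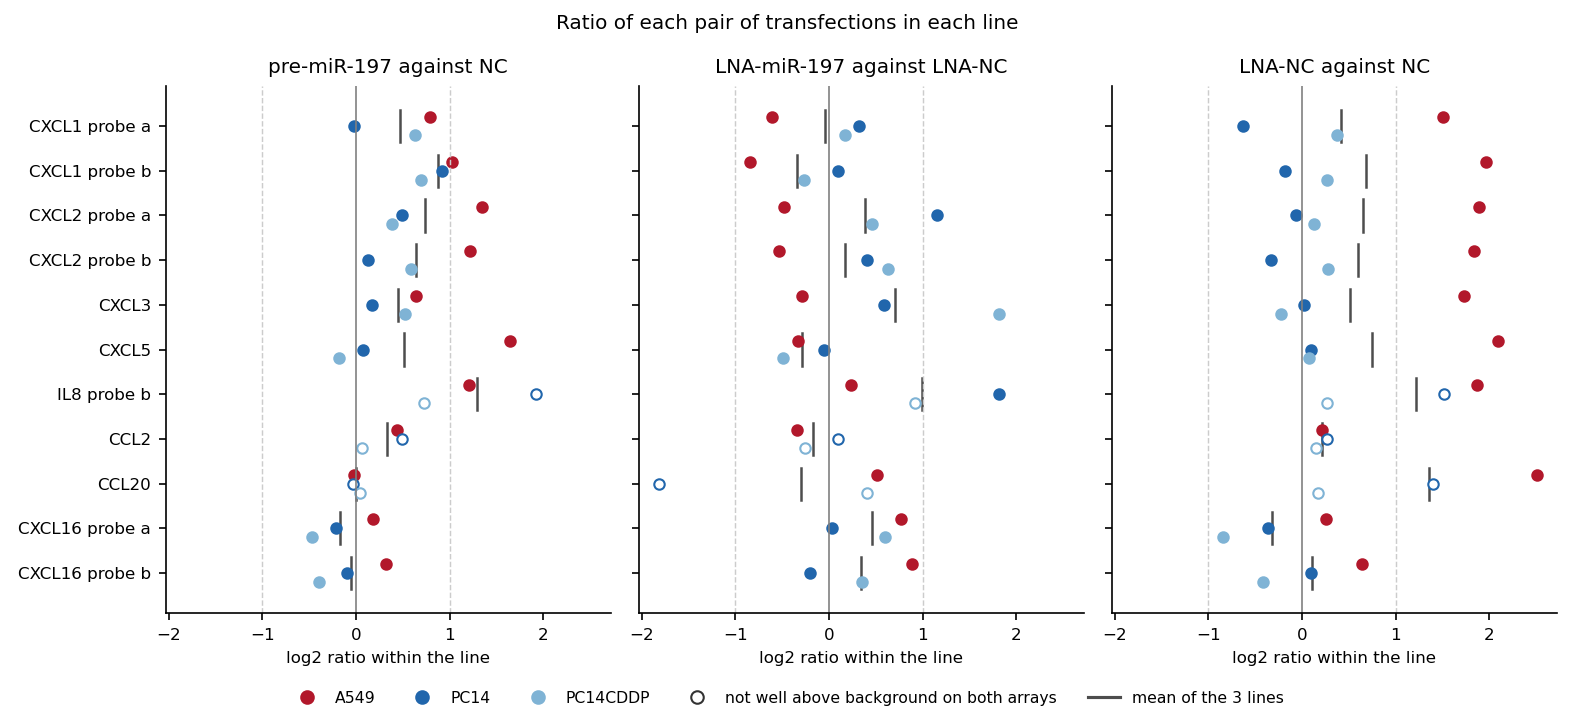
Log2 ratio within each line for the 11 tested chemokine probes in 3 pairs of transfections, with 1 dot a line, the mean of the 3 lines as a vertical stroke and dashed lines at 2-fold. Open dots are ratios where at least 1 of both arrays was not well above background; in LNA-NC against NC the A549 dots of CXCL1, CXCL2, CXCL3, CXCL5, IL8 and CCL20 lie beyond 2-fold and the filled dots of the other lines within it.

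Several members varied together within lines, and others did not. With each line's mean removed, the deviations of CXCL2 probe b and CXCL1 probe a over the 12 arrays had r = 0.93, which is the pair with overlapping sequence. Probes of the same gene gave r = 0.89 for CXCL2, 0.87 for CXCL1 and 0.86 for CXCL16. Between genes, CXCL3 had r = 0.84 with CXCL2 probe b, which may also read CXCL3, and 0.79 with CXCL2 probe a. IL8 probe b had r = 0.84 with CXCL2 probe a and 0.38 with CXCL1 probe a. The 15 pairs among CXCL1, CXCL2, CXCL3 and CXCL5 ran from 0.43 to 0.93. CCL2 had r from -0.55 (CXCL16 probe a) to 0.42 (CXCL1 probe b), and CXCL16 probe a had 0.12 with CXCL1 probe b and 0.13 with IL8 probe b. Of all 55 pairs 4 lay below 0, each of them with CCL2. CCL2 and CCL20 were well above background on 4 of the 12 arrays and IL8 probe b on 7. Their deviations on the other arrays are not measurements of RNA. All these correlations are descriptions over 12 arrays that share lines, slides and scaling, and the A549 NC array enters each of them.

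For each member, the other gene whose deviations were most alike was MPP1 for CXCL5 (r = 0.94), LCORL for CXCL2 (0.91), INAFM1 for CXCL1 (0.89), AGO4 for CXCL16 (0.90) and ZNF585A for CXCL3 (0.99). For CCL2, IL8 and CCL20, part of whose arrays were not well above background, it was NOC2L (0.92), UVSSA (0.96) and KLHL30 (0.98). Each is the highest of the named genes tested over 12 arrays, so a high value was built into the choice.

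Genes around the chemokines were described from lists of receptors, other ligands, NF-κB, interleukin-1 and TNF signaling, and mRNA decay and shedding, with the brightest tested probe of each gene. Genes dim on all arrays of a line passed the filter through the other lines, so a difference between lines was built into their passing. Of 23 receptors 13 were tested, and CXCR2, the receptor of the neutrophil-attracting ligands, and CCR2, that of CCL2, were not well above background on any array. CXCR1 was well above it on 4, 4 and 3 arrays of A549, PC14 and PC14CDDP, and CCR6, the CCL20 receptor, on all 12. Among receptors, 6 were called higher and 4 lower in A549 than in PC14, beside 34.4% and 33.1% of all probes. CCR7 at 5.51 (2 of 4 PC14 arrays well above background) and ACKR3 (a scavenging receptor) at 5.35 were higher. CCRL2, an atypical receptor, was at least 19.4-fold lower in A549, where no array was well above background. In PC14CDDP against PC14, 2 were higher and 4 lower, beside 25.1% and 23.5% of all probes, with CXCR4, the CXCL12 receptor, at -4.01 and CCRL2 at 2.51. The median over the 13 was 0.20 and -0.43 in these comparisons, beside 0.05 and 0.04 over all probes, and 0.20 and 0.00 with receptors dim throughout a line at their bounds.

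Of 34 other chemokine ligands 14 were tested. In A549 against PC14 6 were called higher and 4 lower, with a median of 0.10, beside 34.4% and 33.1% of all probes. XCL1 was at least 37.4-fold lower in A549, where no array was well above background, and the mucosal ligand CCL28 was lower too (log2 difference -6.45, with 1 of 4 A549 arrays well above background). CCL26, an eosinophil attractant, was higher (3.44). In PC14CDDP against PC14 1 was called higher (CCL27, 1.49) and 3 lower, beside 25.1% and 23.5% of all probes. Among the lower were CCL28 (-1.05) and PF4 (at least 1.29-fold, not well above background in PC14CDDP). None of the 14 was called in any transfection comparison by its brightest probe, but another probe of CCL27 was called higher after LNA-miR-197 against LNA-NC (0.71, adjusted p = 0.0429).

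Of 32 genes of NF-κB, interleukin-1 and TNF signaling 29 were tested. In A549 against PC14 15 were called higher and 2 lower (median 0.36), beside 34.4% and 33.1% of all probes. Among the higher were the apoptosis inhibitor BIRC3 (log2 difference 3.88) and MYD88 (2.74), the adaptor of the interleukin-1 receptor. The adaptor TRAF1 was at least 11.7-fold higher (not well above background in PC14), but it passed the filter through the A549 arrays alone. In A549 against PC14CDDP 17 were higher and 6 lower, beside 35.5% and 34.7% of all probes, with MYD88 at 5.76. In PC14CDDP against PC14 7 were higher and 7 lower (median -0.01), beside 25.1% and 23.5% of all probes. The granulocyte factor CSF3 was at least 6.22-fold higher (not well above background in PC14), but it passed the filter through the PC14CDDP arrays alone. IL6 (at least 4.34-fold, not well above background in PC14CDDP) and MYD88 (log2 difference -3.02) were lower, so IL6 was lower in PC14CDDP like IL8.

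After LNA-miR-197 against LNA-NC, 3 of the 29 were called higher and 0 lower, beside 3.92% of all probes higher. These were the NF-κB inhibitors NFKBIB (log2 difference 0.99, SE 0.18, adjusted p = 0.0239) and NFKBIE (0.96, SE 0.14, adjusted p = 0.0174) and the ubiquitin ligase TRAF6 (0.63, SE 0.12, adjusted p = 0.0253). The other tested probe of NFKBIB was not called. None of the 29 was called in the other transfection comparisons. In A549, IL6 and the adhesion molecule ICAM1 were at least 2-fold higher on the LNA-NC array than on the NC array (1.41 and 1.62 on the log2 scale). They were 2 of the 27 measured there, beside 2.41% of all probes. The macrophage marker CD68 (1.23), as 1 of 7 immune and stromal markers measured, and the eosinophil attractant CCL26 (1.17), as 1 of 11 other ligands, were so too. Of 10 receptors measured, 0 were. In PC14CDDP, CD3E (-3.77) and PTPRC (-1.08) were at least 2-fold lower in the same pair, as 2 of 7 immune and stromal markers measured. IL6 was at -4.69, -5.79, -1.88 and -4.38 in A549 after pre-miR-197, NC, LNA-miR-197 and LNA-NC, so that its NC array was the lowest of the line, as for IL8.

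Of 9 genes of mRNA decay and shedding, all were tested. ADAM10, the protease that sheds CX3CL1 and CXCL16, was called higher after LNA-miR-197 against LNA-NC (log2 difference 0.62, SE 0.15, adjusted p = 0.0450), but its other tested probe was not called. The other 8 genes were not called by their brightest probe, while another probe of HNRNPD was called lower (-0.59, adjusted p = 0.0313). In PC14CDDP against PC14 4 were higher and 0 lower, beside 25.1% and 23.5% of all probes. ZFP36, which binds AU-rich elements and speeds decay, was at 1.73, its relative ZFP36L1 at 0.87 and HNRNPD at 0.71. In A549 against PC14 2 were higher and 3 lower, beside 34.4% and 33.1% of all probes, with the RNase ZC3H12A at 2.46.

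Genes that mark immune and stromal cells in tissue, where such cells are a major source of chemokines, were also read. The samples here were cultures of tumor cell lines and not tissue. In A549 against PC14 4 of 8 tested were called higher (CD14 at 4.35 among them) and 2 lower, beside 34.4% and 33.1% of all probes. PECAM1 at -5.47 was among the lower, with 1 of 4 A549 arrays well above background. Their summed level, in multiples of the 75th percentile, was 3.16 to 3.999 in A549, 1.73 to 2.75 in PC14 and 2.48 to 4.83 in PC14CDDP, with COL3A1 and MPO each well above background on at most 2 arrays. The relation of these genes to the chemokine differences between lines was not tested. After LNA-miR-197 against LNA-NC, COL1A1 was called lower (-1.05, SE 0.25, adjusted p = 0.0424) and the other 7 were not called.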

How the data were processed

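Total RNA (100 ng a sample) was hybridized, with 1 dye, to Agilent SurePrint G3 Human GE v2 8x60K arrays of 60-base probes. The authors deposited scanner output of Agilent Feature Extraction 10.7.3.1 (hg19), in which each spot has an intensity as mean signal, background and processed signal, the last background-subtracted and not scaled between arrays, and a table of the same processed intensity values. The main text names Student's t-test in general and no normalization for these arrays.

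Control and outlier spots were left out, spots of a probe averaged, and log2 intensities taken relative to the array's 75th percentile. Of 50599 probes 106 were incomplete, and 33714 were well above background on at least 3 of 12 arrays and were tested. RefSeq (GRCh38.p14) accessions named 28174 probes (55.7%), and 0 columns belonged to other samples. limma 3.58.1 (R 4.3.3) was fitted with transfection and line on all 12 arrays, probe by probe, and probes with adjusted p below 0.05 were called. The fit was tested on simulated data. Deviations from the transfection means correlated between arrays of a line (r from 0.845 to 0.947), so the line was kept as the block.

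A probe dim throughout a group was given a bound: per array, the higher of its own signal and the lowest well above background. Named were every member probe, per list the 3 called genes with the largest changes (of which some are printed) and the gene most like each member. The members and lists were chosen with earlier results of these data known, and the folds within lines, the direction counts and the motifs after seeing the values. The number of arrays limits the precision, and p-values measure the spread between these cultures. Python 3.11.15, pandas 2.3.3, Biopython 1.88 and matplotlib 3.10.9 were used. In the list of immune and stromal markers 1 gene is not reported here and was left out of its counts and sums. The alternatives are under the closing section.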

Additional observations from a re-analysis of the deposited data

Results flagged for a closer look

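CXCL1 probe b on the PC14 array with pre-miR-197 was at -3.60 on the log2 scale, far above the other PC14 arrays, which lay between -4.70 and -4.52. It was found among 27 sets of 4 arrays of a line by the gap to the nearest array, a test that chance passes in about 1 of 20 sets. CXCL1 probe a was at -4.27 on that array, within the range of its line.

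CXCL1 probe a moved in opposite directions in LNA-NC against NC, with a log2 ratio of 1.504 in A549 and -0.63 in PC14, which differ by 2.14. The difference was not tested, since each line has 1 array of each transfection, and it was 1 of 25 pairs of ratios looked at. CXCL1 probe b gave 1.97 and -0.18.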

How the results depend on the processing

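No member probe was called in any transfection comparison under any alternative but 1: with NC in place of LNA-NC, LNA-miR-197 called 1 member probe, IL8 probe b. That setting called 2355 of all 33714 probes higher and 2628 lower. The lone control array of a line is then shared with pre-miR-197. With each transfection left out in turn, the member probes called numbered 9 to 10 in A549 against PC14, 11 in A549 against PC14CDDP and 6 to 8 in PC14CDDP against PC14. Without the line as a replicate block 0 member probes were called in all 4 transfection comparisons.

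Of 959 single values, 906 kept direction and side of the threshold, 16 lost and 9 gained a call, and 28 changed sign. Against NC rather than LNA-NC, LNA-miR-197 gave log2 differences of 0.040 for CCL2, 0.38 for CXCL1 probe a, 0.35 for CXCL1 probe b, 1.06 for CCL20 and 0.46 for CXCL5. With normexp processing CCL20 changed sign in LNA-miR-197 against LNA-NC (0.040), and CCL20 (0.076) and IL8 probe b (0.057) did in the difference between effects.

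With each line left out in turn, pre-miR-197 against NC ran from -0.24 to 0.11 for CXCL16 probe b, from -0.027 to 0.013 for CCL20 and from -0.052 to 0.86 for CXCL5. LNA-miR-197 against LNA-NC ran from -0.22 to 0.25 for CXCL1 probe a, from -0.70 to 0.46 for CCL20, from -0.061 to 0.52 for CXCL2 probe b and from -0.0086 to 0.81 for CXCL2 probe a. LNA-NC against NC ran from -0.13 to 0.94 for CXCL1 probe a, from -0.17 to 0.37 for CXCL16 probe b, from -0.023 to 1.06 for CXCL2 probe b and from -0.10 to 0.87 for CXCL3. The difference between effects ran from -0.71 to 0.45 for CCL20, from -0.85 to 0.16 for CXCL2 probe b, from -0.87 to 0.37 for CXCL2 probe a, from -0.26 to 0.85 for CXCL3 and from -0.54 to 0.040 for IL8 probe b. With each transfection left out, PC14CDDP against PC14 ran from -0.020 to 0.72 for CCL20 and from -0.056 to 0.099 for CXCL5. The cause of these sign changes was not tested.

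Counts over all probes depended more on the setting. Pre-miR-197 against NC called 10 probes higher and 17 lower, but 272 and 372 with normexp, and 0 and 0 with any line left out. LNA-miR-197 against LNA-NC called 1323 and 1357, but 2315 and 2285 with a trended robust prior, 280 and 293 without the filter on dim probes, and 0 and 0 with any line left out. LNA-NC against NC called 110 and 43, but 189 and 30 with normexp. Only IL8, CCL2 and CCL20 among the tested members had arrays at background, and their ratios there are not measurements of RNA.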
